A study of Arabidopsis thaliana with 2 samples.

Results

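Expansins and xyloglucan endotransglucosylases (XTH proteins), 39 genes of cell wall loosening among 18615 named genes of the deposited table, were compared between bts-1 and Col-0 shoots of Arabidopsis thaliana. They are the genes whose deposited description contains "expansin", "xyloglucan endotrans" or "xyloglucan:xyloglucosyl". The rule reads descriptions and not values, although this family was taken up with earlier results of these data known. The bts-1 group is a mutant of BTS (BRUTUS), an E3 ubiquitin ligase that restrains the iron-deficiency response of the plant, and the Col-0 group is the wild type. Both genotypes grew on sucrose-free 1/2 MS medium, RNA from the shoots of seedlings was treated with DNase, and 1 library was sequenced for each genotype. The plants' age, the number of plants behind each library and the nature of the bts-1 allele are not given in the sources used here. With 1 library per genotype there is no replicate check, so no standard deviation or p-value can be given, and every difference below is a difference between 2 libraries.

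Growing plant cells are held by a wall of cellulose microfibrils coated and tethered by other polysaccharides, among them xyloglucan. Expansins loosen this wall under acid conditions without cutting its polymers. XTH enzymes cut xyloglucan chains and rejoin the cut end to another chain, or in some members to water, so they can loosen, mend or reinforce the wall. Both families are large in Arabidopsis, and single members differ widely in where and when they are transcribed.

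Values are log2(FPKM + 1) as deposited, where FPKM is a count of fragments corrected for the length of the transcript and the size of the library. Each log2 ratio subtracts Col-0 from bts-1. The read depth is unknown because the table holds no counts. BTS (AT3G18290) itself stood at 9.57 in bts-1 and 10.84 in Col-0, a log2 ratio of -1.27, as deposited. On chromosome 3, which carries BTS and 7 of the 39 genes, the deposited level of a gene was lower the longer the exons of the gene that follows it by identifier, with a slope of -0.56 (SE 0.03) on the log2 scale over 3619 genes, against -0.02 to 0.04 on the other chromosomes. Levels of chromosome 3 genes, whose identifiers begin with AT3G, are therefore uncertain, and for the members on it rescaled values or ratios, corrected by exon lengths, are given below. BTS itself had a rescaled level of 5.38 in bts-1 and 6.63 in Col-0. Of the shoot markers RBCS1A, LHCB2.1, CAB1, FAMA and ATML1, all 5 were measured, with summed FPKM of 10890 in bts-1 and 11260 in Col-0, and 4 of the 5 had positive ratios (median log2 ratio 0.26). Of 9 root markers, 5 were measured: PHT1;1, CASP1, PYK10, SHR and SCR. Their ratios were 3 positive and 2 negative (median log2 ratio 0.13), from 0.56 for PHT1;1 to -0.57 for SCR, a chromosome 3 gene. Summed FPKM of the 5 was 1207 in bts-1 and 1111 in Col-0, nearly all of it from PYK10 (AT3G09260). PYK10, also on chromosome 3, stood at 10.19 in bts-1 and 10.06 in Col-0 and, rescaled, at 9.78 in bts-1 and 9.65 in Col-0. The part of root tissue in the results was not tested.

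The wall-loosening genes did not move as a block. All 39 reached an FPKM of 1 in a library and so passed the filter on low values. At least 2-fold higher in bts-1 were 2 of them, XTH15 and XTH25, where 1.92% of the 18510 genes at that level were. As deposited, at least 2-fold lower were also 2, TCH4 and EXLA3, where 3.63% of all genes were. EXLA3 was at the lowest value of bts-1, and with chromosome 3 rescaled TCH4 alone counted as lower. Past 4-fold were 0 members higher (0.0972% of all genes) and EXLA3 alone lower as listed (0.589% of all genes). The median log2 ratio of the 39 genes was 0.05, beside 0.04 over all genes. Of the 39 ratios, 21 were positive and 18 negative, and of all 18510 genes, 10135 were positive and 8357 negative. Their spread was wider than that of the table: the middle 50% of the members lay between -0.40 and 0.44, and the middle 50% of all genes between -0.21 and 0.27. Summed over the 39 genes, FPKM came to 1902 in bts-1 and 2066 in Col-0. Without TCH4 alone the sums were 1709 in bts-1 and 1532 in Col-0, so the direction of the total hung on that gene.

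**Figure D1:**
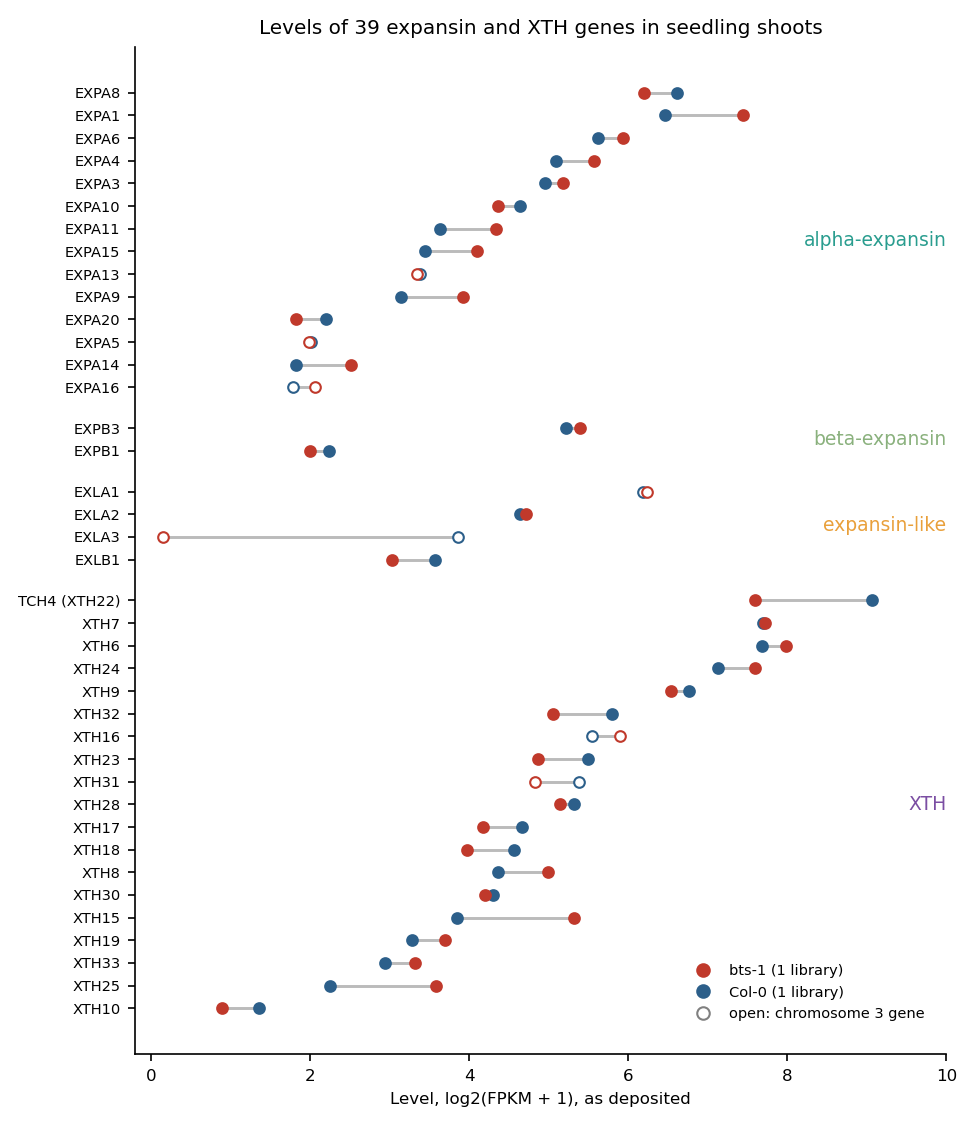
Levels of the 39 genes as deposited, log2(FPKM + 1) on the horizontal axis, with 1 row per gene grouped by family. Red points are the bts-1 library, blue points the Col-0 library, and open points mark chromosome 3 genes. TCH4 has the highest point of all, at 9.06 in Col-0, and the longest line belongs to EXLA3.

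Among the alpha-expansins, the family that loosens walls in the classical acid-growth test, 9 of 14 had positive ratios and the median log2 ratio was 0.29. Of all 18510 genes, 10135 had positive ratios. None of the 14 alpha-expansins reached 2-fold in either direction. Past 1.5-fold, 5 of the 14 were higher and 0 lower in bts-1, against 7.53% of all genes higher and 9.32% lower at that size. EXPA1 (AT1G69530), which acts in the walls of guard cells and so in stomatal opening, stood at 7.45 in bts-1 and 6.46 in Col-0. Its log2 ratio of 0.98 lay just short of 2-fold, and 2.0% of genes had a higher one. In FPKM this was 173 in bts-1 and 87.3 in Col-0, which made EXPA1 the most abundant alpha-expansin of the bts-1 library, whereas in Col-0 that place was held by EXPA8. In whole shoots, a different number of cells of a type and a different amount of RNA per cell cannot be told apart.

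The other alpha-expansins past 1.5-fold were of low to middle level. EXPA9 (AT5G02260) was at 3.93 in bts-1 and 3.14 in Col-0, a log2 ratio of 0.78. EXPA11 (AT1G20190) was at 4.34 in bts-1 and 3.64 in Col-0, and EXPA14 (AT5G56320) at 2.52 in bts-1 and 1.83 in Col-0. EXPA15 (AT2G03090) had values of 4.10 in bts-1 and 3.45 in Col-0. All 4 thus had ratios between 0.64 and 0.78, smaller than that of EXPA1.

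EXPA8 (AT2G40610), the next most abundant alpha-expansin of bts-1, went the other way, with 6.20 in bts-1 and 6.62 in Col-0. EXPA10 (AT1G26770), known from its part in leaf and pedicel growth, was at 4.36 in bts-1 and 4.64 in Col-0, and EXPA20 (AT4G38210) at 1.82 in bts-1 and 2.20 in Col-0. The exons of EXPA20 overlap on the opposite strand those of AT4G38215, listed at 1.26 in bts-1 and 1.13 in Col-0. EXPA4 (AT2G39700) stood at 5.57 in bts-1 and 5.09 in Col-0, while EXPA6 (AT2G28950) and EXPA3 (AT2G37640) had smaller log2 ratios of 0.32 and 0.22. The 3 alpha-expansins of chromosome 3 differed little between the libraries: EXPA5 (AT3G29030) had a log2 ratio of -0.02, EXPA13 (AT3G03220) of -0.03 and EXPA16 (AT3G55500) of 0.27. After rescaling, EXPA5 stood at 3.43 in bts-1 and 3.45 in Col-0, EXPA13 at 3.01 in bts-1 and 3.04 in Col-0, and EXPA16 at 2.88 in bts-1 and 2.57 in Col-0. Over the 14 genes, summed FPKM was 480 in bts-1 and 370 in Col-0, and the 11 alpha-expansins on other chromosomes had sums of 464 in bts-1 and 356 in Col-0.

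Beta-expansins, which in grasses include the pollen allergens that loosen walls, were represented by a pair of genes. EXPB3 (AT4G28250) stood at 5.39 in bts-1 and 5.22 in Col-0. EXPB1 (AT2G20750) stood at 2.00 in bts-1 and 2.24 in Col-0. Neither passed 1.5-fold, and their ratios had opposite signs.

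Expansin-like genes encode proteins with the domain structure of expansins for which wall-loosening activity has not been established. EXLA3 (AT3G45960) was listed at 0.15 in bts-1, the lowest value of that library and shared by 123 genes, and at 3.86 in Col-0. It was thus not detected in bts-1, so no fold is stated for it. The next gene after EXLA3 is a transfer RNA gene with an exon length of 74 bases, beside 1368 bases for EXLA3, a ratio of 18.5. Rescaled by these lengths, EXLA3 stood at 0.01 in bts-1 and 0.79 in Col-0, a difference of -0.78 that is short of 2-fold, with an FPKM of 0.73 in Col-0, below the minimum of 1 used here for a gene to be counted. Of the chromosome 3 genes at that minimum, the 153 whose next gene is shorter than 150 bases had a median level of 6.89 in bts-1 and 6.76 in Col-0, against 3.91 in bts-1 and 3.92 in Col-0 for the other 3466. On the other chromosomes the medians of such genes lay between 3.18 and 3.69 in bts-1 and between 3.03 and 3.62 in Col-0. The Col-0 level of EXLA3 is therefore uncertain. Rescaling uses the same factor for both libraries and leaves the ratio of the FPKM themselves unchanged. The smaller difference of -0.78 comes from the 1 added to each FPKM, which weighs more at the lower level. The size of the listed log2 ratio thus depends on that uncertain level.

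The remaining expansin-like genes showed no difference of that kind. EXLA1 (AT3G45970), which lies beside EXLA3 with the transfer RNA gene between them, stood at 6.24 in bts-1 and 6.19 in Col-0 as deposited, and at 5.70 in bts-1 and 5.65 in Col-0 after rescaling. Its exons overlap on the opposite strand those of HTB9 (AT3G45980), a more abundant gene at 7.16 in bts-1 and 6.64 in Col-0, and whether strand was used in counting is not stated. EXLA2 (AT4G38400) was at 4.71 in bts-1 and 4.64 in Col-0. EXLB1 (AT4G17030) was at 3.03 in bts-1 and 3.57 in Col-0, a log2 ratio of -0.53. EXLA1 and EXLA2 thus differed by at most 0.07 between the libraries.

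**Figure D2:**
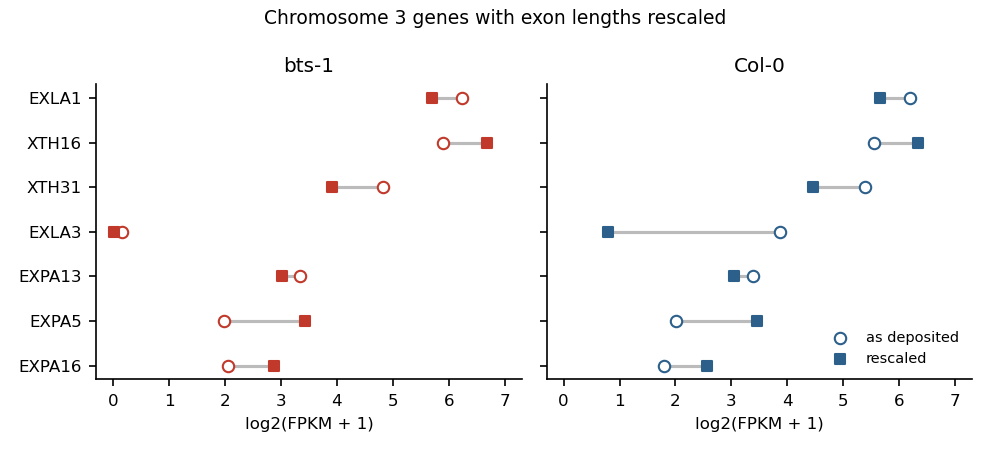
Levels of the 7 chromosome 3 genes in bts-1 (left) and Col-0 (right), log2(FPKM + 1) on the horizontal axis, as deposited (open circles) and rescaled by exon lengths (filled squares). In Col-0 the marker of EXLA3 moves to 0.79 from a deposited 3.86, while EXLA1 stays above 5 in both panels.

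The XTH family carried the other members past 2-fold, and in opposite directions. Of its 19 genes under the rule, 9 had positive and 10 negative ratios, with a median of -0.10. Past 1.5-fold, 3 were higher and 4 lower in bts-1, where 7.53% of all genes were higher and 9.32% lower. Summed FPKM of the family was 1271 in bts-1 and 1535 in Col-0. Without TCH4 the sums were 1078 in bts-1 and 1002 in Col-0.

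TCH4 (XTH22, AT5G57560), named for its rapid induction by touch, was the most abundant of the 39 genes in Col-0. It stood at 7.60 in bts-1 and 9.06 in Col-0, or 193 FPKM in bts-1 and 534 FPKM in Col-0. The log2 ratio of -1.46 is a 2.76-fold lower value in bts-1, and 250 of the 18510 genes had a lower ratio. By level TCH4 ranked 593rd in bts-1 and 186th in Col-0 among the 18615 genes. Since the sorted columns are nearly equal, these ranks restate the levels and are no separate check. XTH23 (AT4G25810) was also lower, at 4.87 in bts-1 and 5.49 in Col-0.

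XTH15 (AT4G14130), known under the name XTR7 as a gene induced by shade, had the highest ratio of the 39 genes. It stood at 5.32 in bts-1 and 3.85 in Col-0, 39.0 FPKM in bts-1 and 13.4 FPKM in Col-0, which is 2.77-fold higher on the deposited scale. Only 83 of the 18510 genes had a higher ratio. Its exons overlap those of AT4G14120 on the opposite strand, which stood at 1.01 in bts-1 and 1.23 in Col-0, far below XTH15. XTH25 (AT5G57550) was at 3.59 in bts-1 and 2.25 in Col-0, a log2 ratio of 1.34. It is a gene of lower level, with 11.1 FPKM in bts-1 and 3.76 FPKM in Col-0, and with a pseudocount of 5 in place of 1 its ratio was 0.88, no longer past 2-fold.

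**Figure D3:**
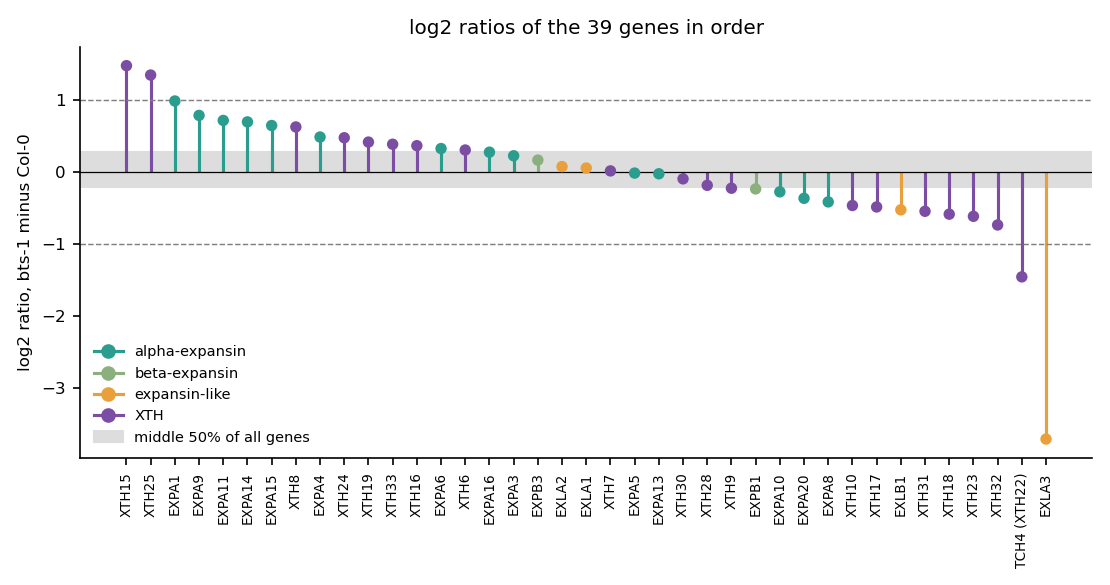
The log2 ratio (bts-1 minus Col-0) of each of the 39 genes, in order, coloured by family. Dashed lines mark 2-fold and the grey band the middle 50% of all genes, -0.21 to 0.27. XTH15 and XTH25 stand first, the next 5 genes are alpha-expansins, and TCH4 and EXLA3 stand last.

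The abundant XTH genes other than TCH4 differed less. XTH6 (AT5G65730) stood at 7.98 in bts-1, the highest level of any of the 39 genes in that library, and at 7.68 in Col-0. XTH7 (AT4G37800) stood at 7.72 in bts-1 and 7.70 in Col-0, a log2 ratio of 0.01. XTH24 (AT4G30270), also known as MERI5 from its transcription in meristems, stood at 7.60 in bts-1 and 7.13 in Col-0. XTH9 (AT4G03210) was at 6.54 in bts-1 and 6.77 in Col-0. As deposited, these 4 genes and TCH4 were the most abundant XTH members in both libraries, and TCH4 alone among them passed 1.5-fold.

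Group III of the family, which is set apart by sequence and whose subgroup with XTH31 and XTH32 mainly splits xyloglucan with water, had 4 genes under the rule, each with a negative ratio. XTH32 (AT2G36870) stood at 5.05 in bts-1 and 5.80 in Col-0, a log2 ratio of -0.74. XTH31 (AT3G44990, listed as XTR8) stood at 4.83 in bts-1 and 5.38 in Col-0, and after rescaling at 3.92 in bts-1 and 4.45 in Col-0. XTH28 (AT1G14720), known from stamen filament growth, and XTH30 (AT1G32170) had smaller log2 ratios of -0.19 and -0.10. The 4 genes had a median of -0.37, XTH32 alone passed 1.5-fold, and the 15 members of other groups had a median of 0.30. Of all 18510 genes, 8357 had negative ratios. The rule left out XTH27, also of group III, with a log2 ratio of -0.34. It also left out XTH4 and XTH5 of other groups, with 0.47 and -0.07.

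Of the XTH members not yet described, XTH8 (AT1G11545) stood at 4.99 in bts-1 and 4.37 in Col-0, a log2 ratio of 0.62. XTH16 (AT3G23730) and XTH33 (AT1G10550), a member held at the plasma membrane, had log2 ratios of 0.36 and 0.38, and XTH16 stood at 6.69 in bts-1 and 6.33 in Col-0 after rescaling. XTH17 (AT1G65310) was at 4.18 in bts-1 and 4.67 in Col-0. XTH10 (AT2G14620), the member of lowest level in Col-0 as deposited, was at 0.89 in bts-1 and 1.36 in Col-0. The genes XTH4 (AT2G06850), XTH27 (AT2G01850) and XTH5 (AT5G13870) belong to the family but are described in the table as endoxyloglucan transferases and fell outside the rule. XTH4 stood at 9.07 in bts-1 and 8.60 in Col-0, XTH27 at 7.69 in bts-1 and 8.03 in Col-0, and XTH5 at 1.51 in bts-1 and 1.58 in Col-0. With them included the median log2 ratio was 0.03 over 42 genes.

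**Figure D4:**
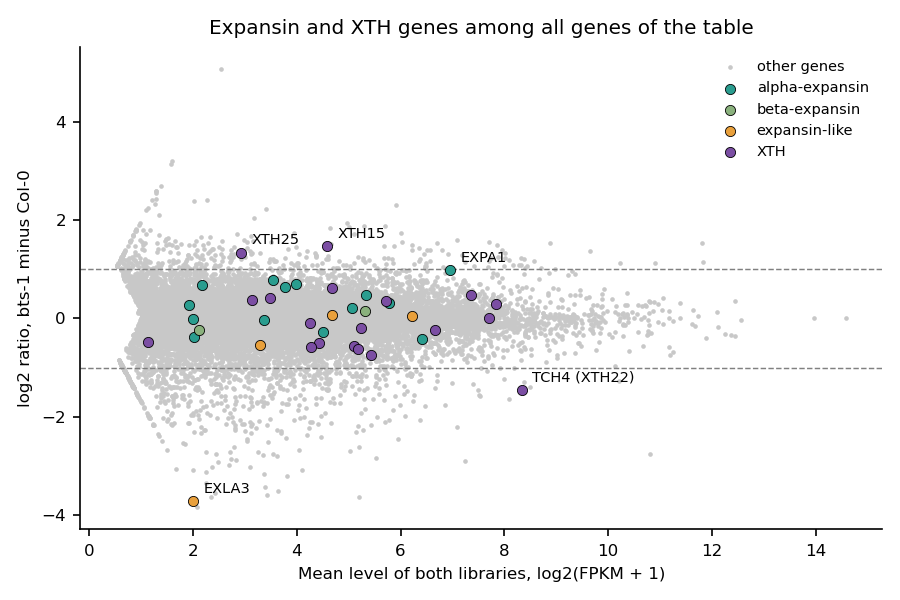
Mean level of both libraries, log2(FPKM + 1), against the log2 ratio (bts-1 minus Col-0) for 18510 genes, with the 39 members coloured by family over the other genes in grey. Dashed lines mark 2-fold. TCH4 lies at the high end of expression, where few genes reach -1, and EXLA3 among genes of low mean level.

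Neighbouring XTH genes had ratios of opposite sign. XTH25 and TCH4 are consecutive genes on the same strand of chromosome 5, and their log2 ratios were 1.34 and -1.46. On chromosome 4, XTH24, XTH18 and XTH19 follow one another on the same strand, with ratios of 0.47, -0.59 and 0.41. XTH18 (AT4G30280) stood at 3.98 in bts-1 and 4.57 in Col-0, and XTH19 (AT4G30290) at 3.70 in bts-1 and 3.28 in Col-0. Shared reads between copies could blur such differences. Of the 39 genes, 5 share any 50-base transcript window with another gene: XTH19 with 1.63% of its windows, XTH18 with 1.57%, and EXLA1, EXLA3 and XTH17 with under 1%. TCH4, XTH15 and XTH25 share none.

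Of the 4 genes past 2-fold as deposited, EXLA3 fell short of 2-fold once rescaled. The 250 bases before the annotated start of these 4 genes, and of EXLA1 as the neighbour of EXLA3, are shown. They were read from the TAIR10.1 assembly by gene identifier, with the start taken from its RefSeq annotation; the deposited table carries no coordinates, and the submitters' notes name TAIR10. Capitals mark matches, on either strand, to the letters CACGTG (G-box), TTGAC (core of the W-box bound by WRKY factors), TGTCTC (auxin response element), CGCGT (core bound by CAMTA factors) or CGTGTG (brassinosteroid response element). Matches may overlap, and each sequence runs 5′ to 3′ on the strand of its gene.
EXLA3, chr3:16892452-16892701, plus strand: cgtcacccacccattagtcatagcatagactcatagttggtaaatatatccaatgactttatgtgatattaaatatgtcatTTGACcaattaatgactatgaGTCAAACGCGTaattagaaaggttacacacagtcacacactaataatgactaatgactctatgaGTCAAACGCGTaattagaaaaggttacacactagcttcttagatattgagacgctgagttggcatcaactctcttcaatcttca
EXLA1, chr3:16895916-16896165, plus strand: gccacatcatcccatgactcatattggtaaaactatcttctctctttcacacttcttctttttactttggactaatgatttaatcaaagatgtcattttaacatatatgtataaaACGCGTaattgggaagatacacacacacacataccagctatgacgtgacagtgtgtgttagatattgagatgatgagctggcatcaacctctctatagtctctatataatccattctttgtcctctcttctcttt
TCH4, chr5:23308681-23308930, minus strand: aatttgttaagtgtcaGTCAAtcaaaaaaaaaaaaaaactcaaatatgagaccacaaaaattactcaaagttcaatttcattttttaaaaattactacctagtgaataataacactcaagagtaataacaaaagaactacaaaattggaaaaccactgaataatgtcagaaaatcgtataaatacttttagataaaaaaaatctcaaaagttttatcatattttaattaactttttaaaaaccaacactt
XTH15, chr4:8138393-8138642, minus strand: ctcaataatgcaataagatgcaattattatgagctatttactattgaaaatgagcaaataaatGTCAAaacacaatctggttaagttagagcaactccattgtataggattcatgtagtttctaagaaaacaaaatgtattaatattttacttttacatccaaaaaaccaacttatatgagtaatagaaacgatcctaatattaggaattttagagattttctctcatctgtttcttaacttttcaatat
XTH25, chr5:23306441-23306690, minus strand: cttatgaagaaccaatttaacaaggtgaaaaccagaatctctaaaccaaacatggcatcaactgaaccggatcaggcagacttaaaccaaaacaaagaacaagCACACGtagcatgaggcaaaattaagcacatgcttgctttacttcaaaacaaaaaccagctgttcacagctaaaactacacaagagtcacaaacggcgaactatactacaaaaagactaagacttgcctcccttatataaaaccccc

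EXLA3 holds the same run of capitals at both of its longer matches, where a W-box core on the reverse strand adjoins CGCGT on both strands. EXLA1 holds the CGCGT letters on both strands at a single place and no W-box core. TCH4 and XTH15 each hold 1 W-box core, and XTH25 holds 1 match to the brassinosteroid element. Among 27443 promoters of protein-coding genes of the same length, 44.9% hold the W-box core, 6.87% CGCGT and 5.37% CGTGTG. Of the 39 members, 38.5% hold the W-box core, 10.3% CGCGT and 15.4% CGTGTG. The auxin element stands in 10.9% of all and 10.3% of the members' promoters, and CACGTG in 6.49% of all and in 0 of the 39. A match is a run of letters and not a site known to be bound.

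Other genes of the wall were read beside the wall-loosening genes. Of all 18510 genes, 10135 had positive ratios and the median log2 ratio was 0.04. At least 2-fold higher were 1.92% of them, and 3.63% were lower. The cellulose synthesis list, with the cellulose synthases of the primary and secondary wall and their partners, had 12 of 13 genes measured, 10 with positive ratios, a median log2 ratio of 0.47 and 0 past 2-fold. CSI1 (AT2G22125), which links the synthase complex to microtubules, stood at 6.17 in bts-1 and 5.49 in Col-0, COB (AT5G60920), needed for oriented cellulose deposition, at 7.03 in bts-1 and 6.37 in Col-0, and CESA3 (AT5G05170), a synthase of the primary wall, at 7.53 in bts-1 and 6.91 in Col-0. Summed FPKM of the list was 1071 in bts-1 and 766 in Col-0. Xyloglucan synthesis had 12 of 13 genes measured, 9 with positive and 3 with negative ratios, with a median of 0.21 and 0 past 2-fold. Its most extreme members were XLT2 (AT5G62220), which adds galactose to xyloglucan, at 5.52 in bts-1 and 6.15 in Col-0, and the xylosyltransferase gene XXT4 (AT1G18690) at 2.23 in bts-1 and 1.63 in Col-0. All 3 genes that trim xyloglucan side chains, XYL1, AXY8 and BGAL10, had positive ratios of 0.35 to 0.58.

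Proton pumps of the plasma membrane acidify the wall, the condition under which expansins act. Of 11, 8 were measured, with 6 positive and 2 negative ratios, a median log2 ratio of 0.29 and 0 past 2-fold. Of all 18510 genes, 10135 had positive ratios and the median was 0.04. AHA2 (AT4G30190), with the largest ratio, stood at 6.52 in bts-1 and 5.82 in Col-0. AHA1 (AT2G18960), the most abundant pump, stood at 7.80 in bts-1 and 7.90 in Col-0. AHA4, AHA7 and AHA8 lie on chromosome 3, where levels are uncertain. The 6 wall-sensing receptor kinases had a median of 0.26. Among them WAK1 (AT1G21250), which binds pectin, stood at 2.30 in bts-1 and 3.92 in Col-0, the 1 member past 2-fold. At least 2-fold lower were 3.63% of all genes. FER (AT3G51550), on chromosome 3, had a log2 ratio of 0.57. Rescaling by exon lengths cannot test that ratio, since the factor is the same in both libraries.

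Hormone genes that act on wall growth were mixed. The 8 brassinosteroid genes had a median log2 ratio of 0.38 and 0 past 2-fold, with CPD (AT5G05690), an enzyme of brassinosteroid synthesis, at 7.31 in bts-1 and 6.39 in Col-0. The 11 gibberellin genes had a median of -0.13, with 1 member past 2-fold each way. Over all genes the median was 0.04, with 1.92% at least 2-fold higher and 3.63% lower. GAI (AT1G14920), a DELLA repressor of growth, stood at 5.57 in bts-1 and 4.50 in Col-0, and GA3OX1 (AT1G15550), which makes active gibberellin, at 2.58 in bts-1 and 3.71 in Col-0. Of the other genes found with TCH4 as touch-induced, TCH2 (AT5G37770), a calmodulin-like gene, stood at 5.10 in bts-1 and 6.68 in Col-0 and was past 2-fold. TCH3 (AT2G41100), also calmodulin-like, stood at 7.18 in bts-1 and 7.81 in Col-0, and the calmodulin gene TCH1 (AT5G37780) at 4.63 in bts-1 and 4.53 in Col-0. TCH2 and TCH4 were thus lower by like amounts, with log2 ratios of -1.59 and -1.46.

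**Figure D5:**
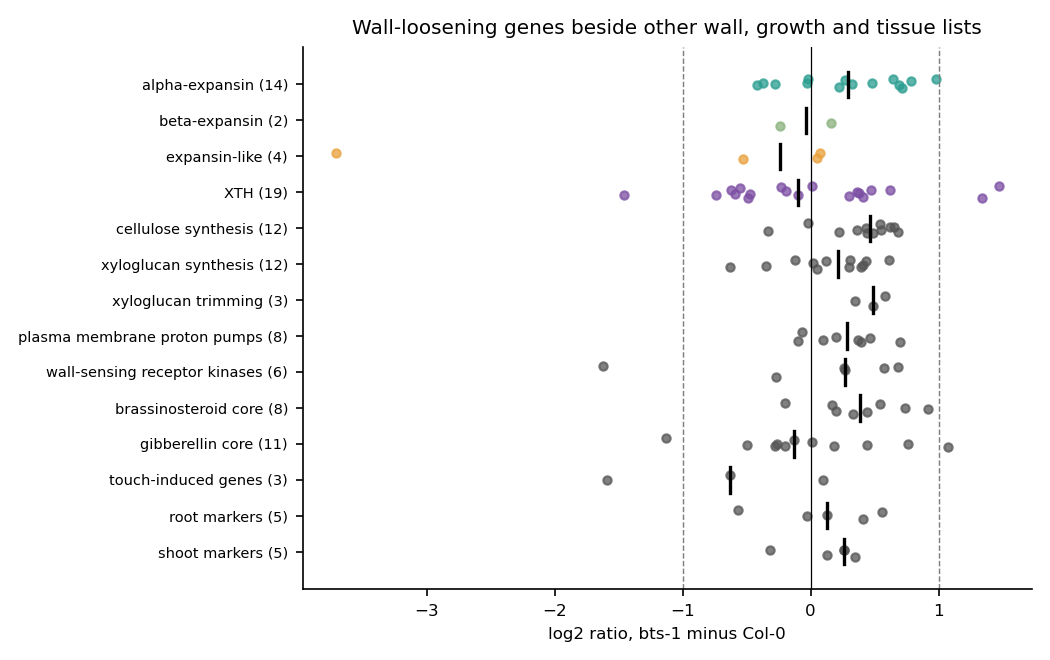
The log2 ratio (bts-1 minus Col-0) of each measured gene, 1 point per gene, for the 4 families of wall-loosening genes (coloured) and 10 other lists (grey), with the number of genes in brackets. Black bars are medians and dashed lines mark 2-fold. The cellulose synthesis genes sit mostly right of 0 with a median of 0.47, while the XTH genes spread on both sides.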

How the data were processed

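The deposited values, 1 column per genotype, are named normalized FPKM but are on a log2 scale. They start at 0 in Col-0 and at 0.15 in bts-1, and were read as log2(FPKM + 1), as the authors' scale is not stated. Sorted, the deposited columns are equal within 0.001 at 99.1% of ranks, as after quantile normalization, a step that no label records, so ratios are relative to the other genes. Without order or settings, TopHat2 2.1.0, Bowtie, HTSeq 0.9.1, cutadapt 1.12, CASAVA 1.8.2 and the build TAIR10 appear in the submitters' processing notes. The libraries came from a directional kit, per the labels' protocols, and use of strand in counting is not stated there.

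Each log2 ratio is the difference of the columns, without a test, computed with Python 3.11.15 and pandas 2.3.3, and the computations were tested on simulated data. A gene counted as higher or lower at 2-fold, among genes that reached an FPKM of 1 in a library. Of the table, 2 rows without symbol and description were left out. Genes at the lowest value of a library were treated as not detected. Chromosome 3 levels were rescaled by multiplying the FPKM by the following gene's exon length and dividing by the gene's own length. Long non-coding and antisense RNA genes were left out of the order, and lengths came from the RefSeq annotation of TAIR10.1. The factor of a gene is the same in both libraries, so rescaling moves a log2 ratio only through the 1 added to FPKM.

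Named were BTS, every member past 2-fold, at a lowest value or among the 6 most abundant in either library, and the members and list genes with the largest ratios. Members that the rule leaves to ranges were added so that all 39 are accounted for. The members and lists were chosen with earlier results of these data known. Alternatives were pseudocounts of 0.1 and 5, no filter and a minimum FPKM of 5, centring on the nuclear median, 1.5-fold and 4-fold limits, and leaving out or rescaling groups of genes.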

Additional observations from a re-analysis of the deposited data

How the results depend on the processing

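No paired analysis was possible because each genotype has 1 library. The count of members at least 2-fold higher, 2 as reported, was 1 with a pseudocount of 5, where XTH25 stood at 0.88. At limits of 1.5-fold and 4-fold the counts were 8 and 0 higher (7.53% and 0.0972% of all genes) and 5 and 1 lower (9.32% and 0.589%). The count lower, 2 as reported, was 1 in each setting that left out EXLA3 or rescaled it: without genes at the lowest value, without chromosome 3, with chromosome 3 rescaled (38 members then pass the filter), and without the 5 members sharing a 50-base window. TCH4 was the member that stayed. The median log2 ratio lay between 0.01 and 0.12 over all settings run, among them the one with 3 more XTH genes, which was added after seeing the data. For the 10 genes past 2-fold or most abundant, 85 of 87 ratios over the settings kept their side of 2-fold. The exceptions were XTH25 as above and EXLA3 at -0.78 with chromosome 3 rescaled. Settings that only leave out genes return the same ratio for each gene that stays, and rescaling touches chromosome 3 alone. Most of the 87 ratios could therefore not move. Of those past 2-fold, 0 changed sign, and neither a pseudocount nor a length factor can change a sign. The unknown depth and the single library per genotype limit every difference, most of all for genes of low level.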
